A study of Homo sapiens with 15 samples.

Results

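Mitochondrial ribosomal protein genes were examined in PE/CA-PJ41 cells, an established human oral squamous carcinoma line, that carried the pCMV6-Neo vector with the human cytoglobin cDNA (CYGB+) and in control cells (NCE, MOCK) that the labels give as carrying the empty vector. Members were chosen by symbol: every non-control probe whose RefSeq accession belonged to a gene named MRPL or MRPS with a number. The rule took 91 of the 42405 probes on the array and 79 of the 19483 gene symbols that could be matched. Of these genes 76 were protein-coding, with 88 probes, and they are the genes counted here. The other 3 were MRPL20-AS1, MRPL23-AS1 and MRPL42P5, which are an antisense, a second antisense and a pseudogene symbol. No probe matched MRPL42 by this rule, and MRPS36 is not a symbol of the reference table.

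CYGB+ cells were stable G418-selected transfectants, which the methods name as clone LST421, and both groups were kept for 24 h in supplemented medium before RNA was taken. The sources differ on NCE: the labels give an empty vector, whereas the study's text elsewhere calls its NCE control un-transfected, and which holds for these arrays is not settled here. CYGB+ is 1 clone, so the insert and any other property of that clone cannot be told apart, nor, if NCE was un-transfected, can vector and selection. Each group had 3 biological replicates, given as RNA extractions on separate occasions, so p-values measure the spread between extractions of the same cells. NCE RNA was hybridised to 9 arrays (3 per replicate) and CYGB+ RNA to 6 arrays (2 per replicate). In bulk RNA, less RNA per cell and fewer cells with that RNA cannot be told apart.

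The mitochondrial ribosome, or mitoribosome, translates the few messages encoded by mitochondrial DNA, all of which specify subunits of the respiratory chain and ATP synthase. Its rRNAs are made in the organelle, but every one of its proteins is encoded in the nucleus, made in the cytosol and imported. The small subunit reads the message and the large subunit forms the peptide bond. Some of its proteins have counterparts in all ribosomes (called universal here), some have counterparts in bacteria only, and some have no bacterial counterpart and belong to the mitochondrion.

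Several facts of the whole series touch every value. All 8 arrays of slide 1 held NCE RNA, while slide 2 held 1 NCE array (replicate 1) and all 6 CYGB+ arrays, so group and slide were nearly confounded and within-slide values are printed below. The labels give Cy3 (green) for every sample, whereas the methods name Cy5 for the control, and the green signal was used throughout. On each array between 20719 and 24277 probes were well above background. One array, the first of CYGB+ replicate 1, stood apart, with a median correlation of 0.901 with the other arrays. All 10 squamous epithelial markers were well above background on all 15 arrays, against 1 of 7 fibroblast markers (COL1A2), 1 of 5 leukocyte markers (CD14) and 0 of 5 endothelial markers. Above background on no array were 4 fibroblast, 2 leukocyte and 2 endothelial markers. The endothelial marker CDH5 was well above background on 8 of 9 NCE and 6 of 6 CYGB+ arrays, and the fibroblast marker COL1A1 on 7 and 6. COL1A2 fell in CYGB+ by 2.54 on the log2 scale, and its part in the results was not tested. The cytoglobin probe read 12.84, 13.14 and 12.96 (log2 signal) in NCE and 12.39, 13.47 and 13.01 in CYGB+, a difference of -0.02 with limma's adjusted p of 0.967. It was well above background on all 9 NCE arrays, whereas the paper describes the parent line as not expressing cytoglobin and LST421 as a high expressor. The reason for the signal in NCE was not tested. Whether that probe lies within the transfected cDNA is not known here, so it does not check the labels.

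By limma 3 of the 76 members had an adjusted p under 0.05 (3.95%, against 11.6% of all probes tested). All 3 were among the 50 large subunit genes. MRPL52 and MRPL39, both without a bacterial counterpart, fell in CYGB+ cells by 2.12 and by 1.08 on the log2 scale. MRPL33, the counterpart of bacterial protein L33, rose by 0.82. The MRPL52 value is that of its brighter probe, while its other probe, at -0.31, did not pass. MRPL33 did not pass with the slide as a block. The promoters of the 3 genes are printed here because these genes passed the test. Mitoribosomal promoters are also known for short motifs of certain transcription factors. Each runs from 200 bases before the annotated start of transcription to its second transcribed base, 5′ to 3′ on the gene's strand, from RefSeq on GRCh38.p14. Capitals mark matches, on either strand, to the ETS motif CCGGAAGT, the NRF1 motif GCATGCGC and the YY1 motif AAGATGGCG.
MRPL52, chr14:22829687-22829888, plus strand: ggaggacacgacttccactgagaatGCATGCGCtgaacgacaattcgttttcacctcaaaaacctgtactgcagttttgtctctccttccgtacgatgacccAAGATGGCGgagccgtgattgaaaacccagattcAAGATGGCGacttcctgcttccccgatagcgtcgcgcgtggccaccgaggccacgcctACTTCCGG
MRPL39, chr21:25607480-25607681, minus strand: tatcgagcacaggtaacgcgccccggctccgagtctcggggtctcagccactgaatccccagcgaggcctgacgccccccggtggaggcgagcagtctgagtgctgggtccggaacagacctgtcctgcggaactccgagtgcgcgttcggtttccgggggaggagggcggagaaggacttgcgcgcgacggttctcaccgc
MRPL33, chr2:27771519-27771720, plus strand: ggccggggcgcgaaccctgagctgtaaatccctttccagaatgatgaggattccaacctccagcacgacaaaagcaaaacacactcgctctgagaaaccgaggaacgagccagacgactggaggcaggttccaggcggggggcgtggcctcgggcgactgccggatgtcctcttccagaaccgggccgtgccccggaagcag

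The MRPL52 promoter held all 3 kinds of motif, with the NRF1 letters beginning 175 bases before the start, the YY1 letters beginning 98 and 64 bases before it and the ETS letters, on the opposite strand, across the start itself. None of these matches overlapped another. No match to the 3 motifs was found in the windows of MRPL39 or MRPL33, which says only that these exact letters were not there.

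Over the first listed start of the 68 member genes that had a promoter in the table (250 bases before to 50 after the start), MRPL52 was the 1 member with 3 kinds of motif, 4 members had 2 kinds, 18 had 1 and 45 had none. The YY1 letters were present in 12 of 68 member promoters (17.6%), compared with 1.85% of all 27305 genes of the table and 4.09% of the 9614 protein-coding genes tested on the array. The ETS letters were present in 11 member promoters (16.2%, against 4.44% and 9.01%) and the NRF1 letters in 6 (8.82%, against 3.27% and 5.47%). These shares are descriptions of letters, not of binding. The 23 members with at least 1 motif had a median log2 difference of 0.15 (quartiles 0.04 and 0.23), and the 45 without had 0.13 (quartiles -0.08 and 0.26).

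Of the 91 member probes, 88 passed the filter on dim probes, which asked for a signal well above background on every array of at least 1 group. All 88 were well above background on all 15 arrays, so none entered through 1 group alone, and none was saturated. The 3 that did not pass were the MRPL23-AS1 probe and the dimmer probes of MRPL43 and MRPS18C. All 76 protein-coding members thus had a tested probe, and where a gene had 2 the brighter represents it. Values are log2 green signals after quantile normalisation, the arrays of a replicate averaged. They are compared within a probe and never between probes.

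By limma's moderated test with Benjamini-Hochberg adjustment over all 19791 probes tested, 3 of the 76 genes differed at an adjusted p under 0.05 (3.95%): 1 was higher in CYGB+ and 2 were lower. Over all probes tested 11.6% were called, 6.32% higher and 5.3% lower. Differences over 1.5-fold were found for 6 members, against 22.6% of all probes, and over 2-fold for 2, against 6.67%. For 70 of the 76 genes the 95% interval of the difference lay within 2-fold in both directions, as it did for 69.2% of all probes. The exceptions were MRPL52, MRPL39, MRPL33, MRPL17, MRPL23 and MRPL57. The members' median SD over the biological replicates was 0.10 in NCE and 0.17 in CYGB+, compared with 0.18 and 0.27 for all probes. The median SE of a member's difference was 0.159, compared with 0.196 for all probes.

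**Figure D1:**
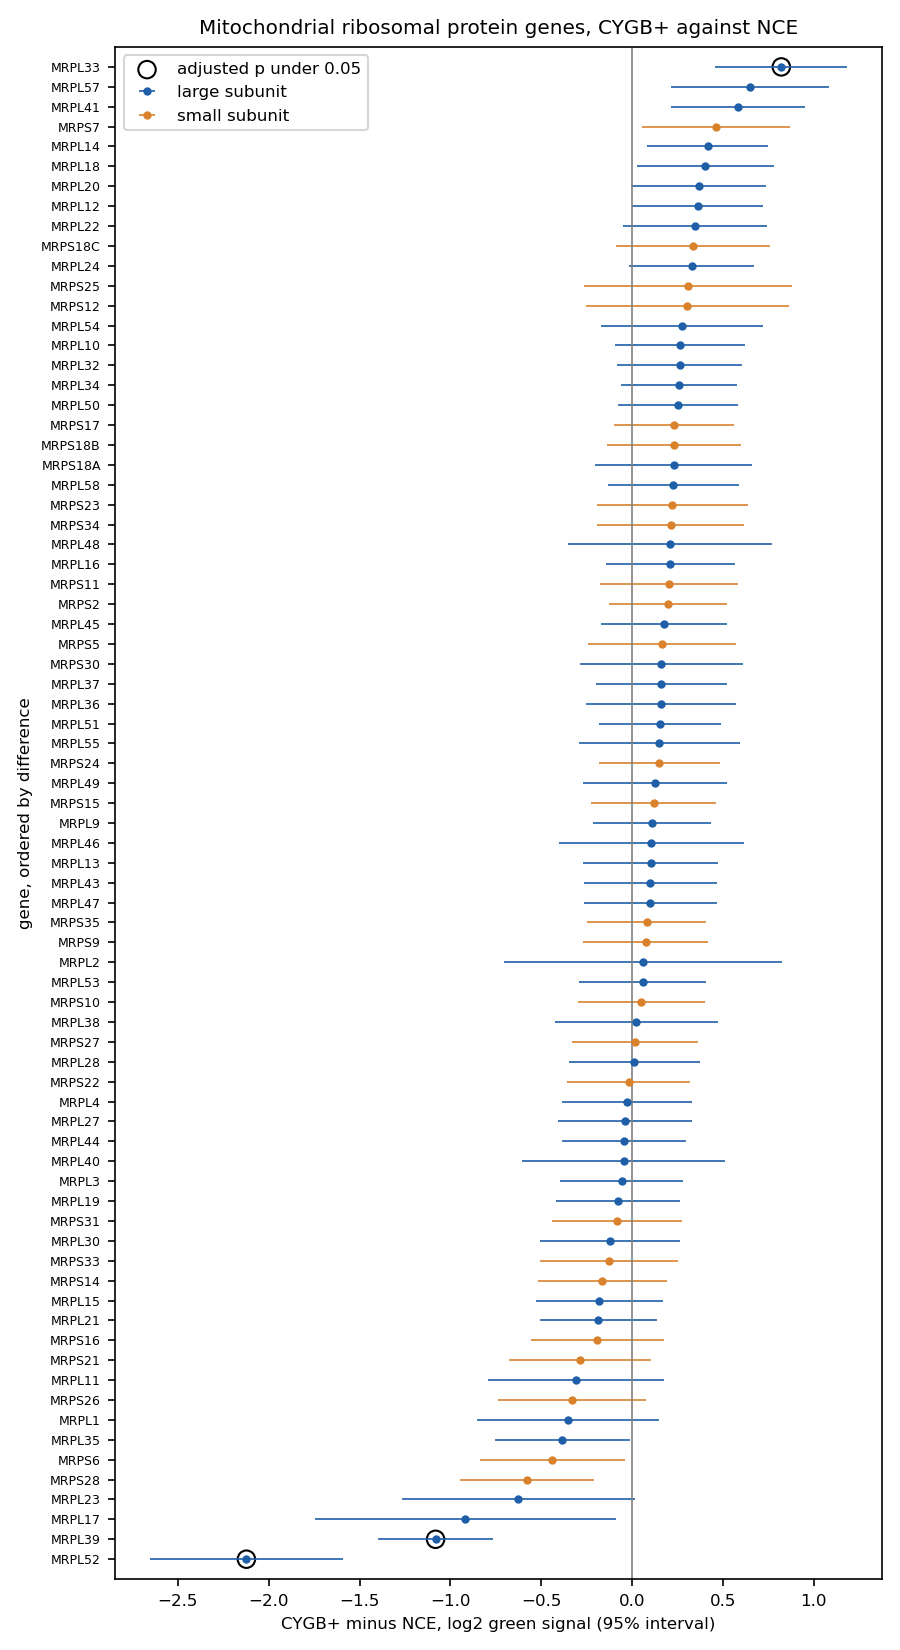
Difference between CYGB+ and NCE (log2 green signal, x axis) for the 76 protein-coding members, ordered from the lowest to the highest on the y axis, with 95% intervals from limma; blue is the large and orange the small subunit, and circles mark an adjusted p under 0.05. MRPL52 (-2.12) and MRPL39 (-1.08) lie apart on the left and MRPL33 (0.82) at the top right, while most intervals cross 0.

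MRPL52, a large subunit protein found only in mitochondrial ribosomes, had the biggest difference of the members. Its brighter probe read 13.13, 12.89 and 12.56 in NCE replicates 1 to 3 and 10.45, 11.11 and 10.65 in CYGB+. Every CYGB+ value lay more than 1 log2 unit below every NCE value. The difference was -2.12 ± 0.23 (SE, n = 3 against 3), or 4.36-fold lower, with a 95% interval of -2.65 to -1.59 and limma's adjusted p of 0.00266. Within slide 2, between the 6 CYGB+ arrays and the single NCE array, the difference was -2.60. With the slide as a block in a fit of all arrays limma's adjusted p was 0.00287. Like every slide-blocked value here, that p rests on the 1 NCE array of slide 2, which is assumed to vary like the other arrays, so it is weak support for a call.

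The gene's second probe, annotated to the same RefSeq transcript, did not show this. It read 9.56, 9.94 and 9.76 in NCE and 9.32, 9.57 and 9.46 in CYGB+, and the groups overlapped by a small margin, the highest CYGB+ value lying just above the lowest NCE value. Its difference was -0.31 ± 0.17 (SE), with an interval of -0.69 to 0.08 and limma's adjusted p of 0.264, and within slide 2 it was 0.07. The fall of the brighter probe exceeded that of the dimmer one by 1.82 on the log2 scale, with an exact permutation p of 0.1 (two-sided), the smallest that 3 against 3 can give. The probes of MRPL12, MRPL19, MRPL32, MRPL45 and MRPS5 gave the same p, so it does not single out MRPL52. The call of MRPL52 thus rested on 1 of its 2 probes.

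MRPL39, a mitochondrion-specific protein of the large subunit, had the smallest spread between NCE replicates of the 3. It read 12.13, 12.13 and 12.16 in NCE and 11.10, 11.04 and 11.04 in CYGB+, so that replicates lay within 0.1 of each other and the groups lay far apart. Its difference was -1.08 ± 0.14 (SE), or 2.12-fold lower, with an interval of -1.40 to -0.76 and limma's adjusted p of 0.00475. Within slide 2 it was -1.16, and with the slide as a block the adjusted p was 0.00176, both resting on the same single NCE array. MRPL39 had 1 probe, so no second one bears on this value.

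MRPL33, a small protein of the large subunit with a bacterial counterpart, was the only member called higher. It read 12.69, 12.46 and 12.71 in NCE and 13.58, 13.35 and 13.40 in CYGB+, and the groups did not overlap. The difference was 0.82 ± 0.16 (SE), or 1.77-fold, with an interval of 0.46 to 1.18 and limma's adjusted p of 0.0177. The slide moved with this difference, and its part was not tested. Within slide 2 the difference was 0.34, and the NCE replicate found on both slides was 0.62 higher on slide 2 than on slide 1. With the slide as a block limma's adjusted p was 0.76. These values all rest on the same 1 NCE array of slide 2. The call of MRPL33 was also lost when any 1 NCE replicate was left out (adjusted p 0.0512, 0.0911 and 0.0624 without replicates 1, 2 and 3).

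**Figure D2:**
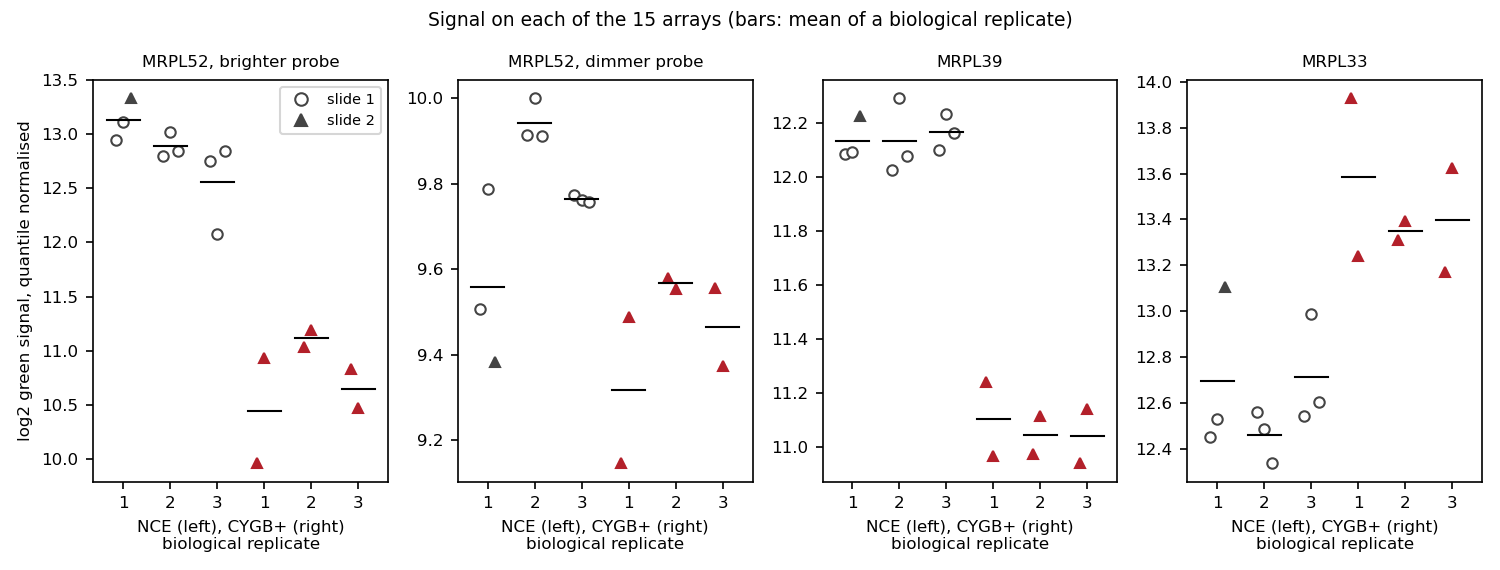
Log2 green signal (y axis) of both MRPL52 probes, MRPL39 and MRPL33 on each array, by group and biological replicate (x axis); open circles are arrays of slide 1, filled triangles arrays of slide 2, red is CYGB+ and bars are replicate means. The NCE array on slide 2 lies with the other NCE arrays for the brighter MRPL52 probe and MRPL39, and between the groups for MRPL33.

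Next in order came 3 genes that missed the threshold. MRPL41 and MRPL57, both without a bacterial counterpart, had differences of 0.58 ± 0.16 and 0.65 ± 0.19 (SE), with limma's adjusted p of 0.0532 and 0.0628. MRPS28, the counterpart of bacterial S1 and a member of the small subunit, had -0.58 ± 0.16 with 0.0558. MRPL41 read 13.86, 13.83 and 13.68 in NCE and 14.38, 14.54 and 14.20 in CYGB+. MRPS28 read 13.36, 13.51 and 13.48 in NCE and 12.78, 13.08 and 12.75 in CYGB+. In these and in MRPL57 the groups did not overlap. With the replicate number as a block each passed the threshold (limma's adjusted p of 0.045 for MRPL41, 0.0426 for MRPL57 and 0.0487 for MRPS28), so that 6 genes were then called, 3 in each direction. That was 7.89% of the members, against 17.6% of all probes in the same fit. Within slide 2 the values were smaller, at 0.40, 0.26 and -0.28.

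MRPL17, the counterpart of bacterial L17, and MRPL23, a protein at the exit of the peptide tunnel, had differences with the widest errors among the members named here. MRPL17 read 12.12, 12.34 and 12.04 in NCE and 10.36, 11.87 and 11.53 in CYGB+, and its difference of -0.92 ± 0.36 (SE) had limma's adjusted p of 0.136. MRPL23 read 12.56, 12.52 and 12.17 in NCE and 11.28, 12.36 and 11.72 in CYGB+, and differed by -0.63 ± 0.28 (SE) with limma's adjusted p of 0.179. The groups overlapped for MRPL23 and not for MRPL17. The first CYGB+ replicate was the low one in both, and within it the array that stood apart, which read 9.07 for MRPL17 and 10.07 for MRPL23 where the other array of the same RNA read 11.65 and 12.50. That array was the lowest of all 15 for 22 of the 76 genes and the highest for 20. The brighter MRPL52 probe was also lowest there, at 9.96, against 10.93 on the other array of that replicate. Without that array 5 members were called higher (MRPL18, MRPL20, MRPL22, MRPL33 and MRPL41) and 4 lower (MRPL39, MRPL52, MRPS28 and MRPS6), while MRPL17 and MRPL23 were not called. These were 11.8% of the members, against 20.6% of all probes in that fit.

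Large and small subunits were compared by position in the ribosome, with MRPS30 and MRPS18A counted in the large subunit, where they are found in spite of their symbols. Neither was called, at 0.16 ± 0.19 and 0.23 ± 0.19 (SE). The large subunit's 50 genes held all 3 calls and ranged from -2.12 to 0.82, with a median of 0.12. The small subunit's 26 genes held 0 calls at the adjusted threshold, against 11.6% of all probes. At an unadjusted p under 0.05 by limma they held 3, compared with 10 of the 50 and 29.3% of all probes. They ranged from -0.58 to 0.46 with a median of 0.10. The methods' t-test also called 0 of the 26, and 794 probes over the whole array. The quartiles were -0.05 and 0.26 in the large and -0.12 and 0.22 in the small subunit, and no test of a difference between the subunits was made. Counting by symbol instead gave medians of 0.11 for 48 MRPL genes and 0.13 for 28 MRPS genes.

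Most members lay slightly higher in CYGB+, a majority that held under both other scalings (58 of 76 by the 75th percentile, 50 with normexp) and shrank to 44 with the slide as a block. The difference was above 0 for 51 genes and below 0 for 25, that is above 0 in 67.1% against 51.1% of all probes, with a median of 0.11 against 0.01. In 22 genes all CYGB+ replicates were above all NCE replicates and in 7 all were below (29 of 76 in all, against 35.0% of all probes; 18.3% higher and 16.7% lower). The slide moved with this shift, and its part in it was not tested. In the NCE replicate measured on both slides, slide 2 read higher by a median of 0.12 over the 76 genes and 0.08 over all probes. The slide 1 arrays of that replicate were unlike each other. Relative to each gene's median over the arrays, the first-repeat array lay at a median of -0.154 and the second-repeat array at -0.017. The slide 2 array lay at -0.007, so the 0.12 rested largely on 1 low array of slide 1. Within slide 2 the members' median difference was 0.05, 0.08 in the large and 0.01 in the small subunit, with 46 genes above 0 and 30 below. The sign was the same within slide 2 as over all arrays for 59 genes and the opposite for 17.

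**Figure D3:**
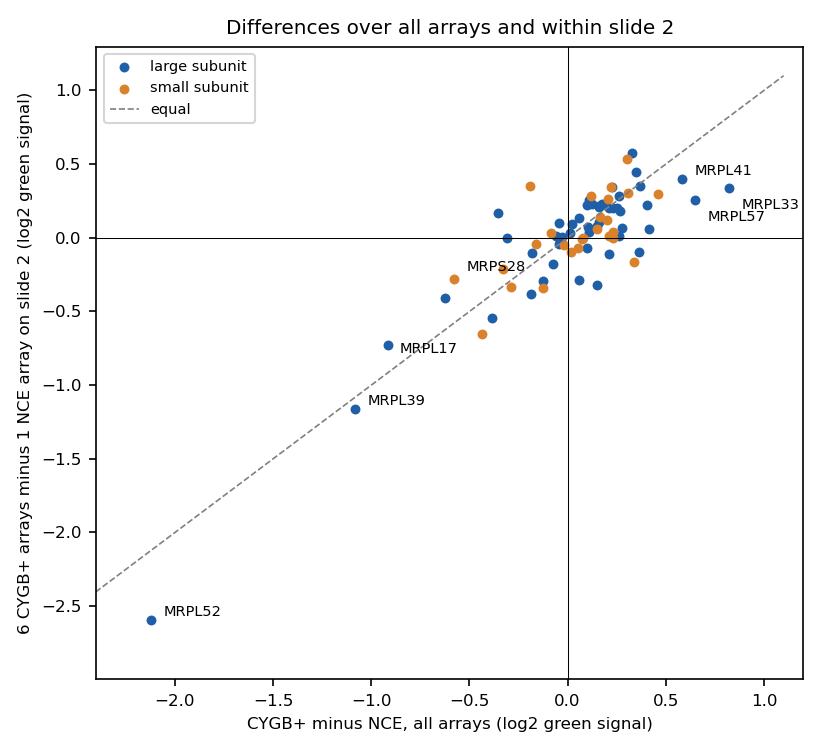
Difference of each of the 76 genes over all arrays (x axis) against the difference within slide 2, 6 CYGB+ arrays minus 1 NCE array (y axis), both in log2 green signal; blue is the large and orange the small subunit, and the dashed line marks equal values. MRPL52 and MRPL39 lie below the line at -2.60 and -1.16 within the slide, and MRPL33 falls to 0.34.

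Split by the evolutionary class of the protein, the classes differed little in their medians except 1. Among large subunit genes the medians were 0.08 for 16 universal, 0.13 for 14 bacterial and 0.16 for 20 mitochondrion-specific proteins. Among small subunit genes they were 0.16 for 11 universal proteins, 10 of them above 0, and 0.05 for 10 mitochondrion-specific ones. The remaining 5 small subunit genes, those with counterparts in bacteria only, had a median of -0.29, with MRPS28, MRPS6, MRPS21 and MRPS16 below 0 (-0.58, -0.44, -0.29 and -0.19) and MRPS18C above it (0.34). MRPS16 was below 0 by its brighter probe only, its second probe being at 0.28. None of the 5 was called in the fit used for the calls above. Among the alternative fits MRPS28 was called with the intensity trend, the replicate block and the random block. Without the array that stood apart both MRPS28 and MRPS6 were called. Within slide 2 the median of the 5 was -0.28, but MRPS16 was at 0.35 and MRPS18C at -0.17 there.

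**Figure D4:**
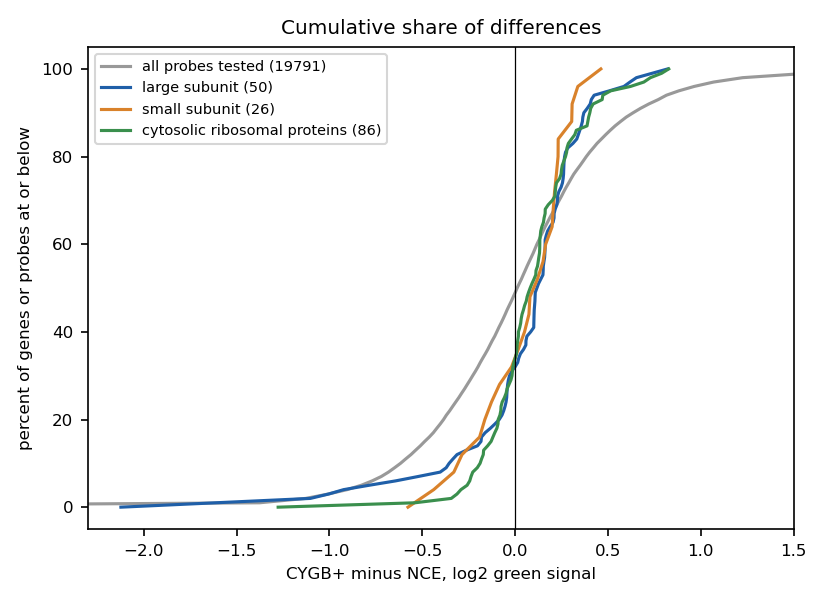
Percent of genes or probes (y axis) at or below a given difference between CYGB+ and NCE in log2 green signal (x axis), for all probes tested, both mitoribosomal subunits and the cytosolic ribosomal proteins. The lines of both subunits and of the cytosolic proteins are steeper than that of all probes and cross 50% just right of 0.

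Of the 76 genes, 64 had 1 probe and 12 had 2, and both probes were tested in 10. The probes of 6 of these genes had differences of the same sign: MRPL52 below 0, and MRPL12 (0.36 and 0.02), MRPL37 (0.16 and 0.27), MRPL45 (0.18 and 0.34), MRPL53 (0.06 and 0.23) and MRPS18B (0.23 and 0.26) above 0, the brighter probe first. In the other 4 the signs were opposite: MRPL19 (-0.08 and 0.21), MRPL32 (0.26 and -0.14), MRPS16 (-0.19 and 0.28) and MRPS5 (0.16 and -0.15). None of these 9 genes had a called probe. The probes differed by a median size of 0.30 on the log2 scale, with 0.47 (MRPS16) the largest outside MRPL52. MRPL52 was the 1 gene whose probes differed by more than 0.5 log2.

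**Figure D5:**
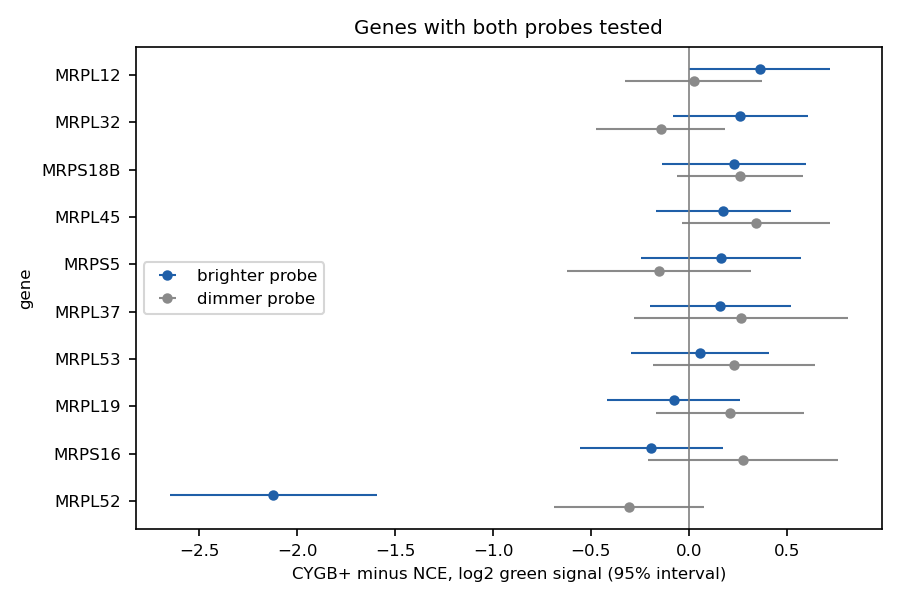
Difference between CYGB+ and NCE (log2 green signal, x axis, with 95% intervals) for the 10 genes (y axis) with both probes tested, the brighter probe in blue and the dimmer one in grey. The MRPL52 probes are at -2.12 and -0.31 with intervals that do not meet, and in the other genes the intervals of both probes overlap, MRPL32 and MRPS16 among them.

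Genes that work with the mitoribosome were read from the same fit, 1 probe a gene. Of 5 mitoribosomal proteins under other symbols (DAP3, PTCD3, CHCHD1, AURKAIP1 and GADD45GIP1) 0 were called by limma, against 11.6% of all probes, and 0 by the methods' t-test. At an unadjusted p under 0.05 by limma there were 0, against 29.3% of all probes. Their differences ranged from -0.18 to 0.17. Of 26 assembly factors 3 were called (11.5%), against 11.6% of all probes. MRM3 and NSUN4, which methylate the rRNA of the large and of the small subunit, rose by 0.83 ± 0.22 and 0.57 ± 0.14 (SE), with limma's adjusted p of 0.048 and 0.0426. METTL17, an assembly factor of the small subunit, fell by 0.61 on the log2 scale (SE 0.15, adjusted p 0.0418). NSUN4 read 9.17, 9.05 and 8.98 in NCE and 9.60, 9.66 and 9.64 in CYGB+, and METTL17 read 10.45, 10.35 and 10.26 against 9.84, 9.80 and 9.59. The groups did not overlap in any of the 3. Their within-slide differences, in the order MRM3, NSUN4 and METTL17, were 0.57, 0.57 and -0.73. None of the 26 was called with the slide as a block, with 75th percentile scaling or when any NCE replicate or CYGB+ replicate 3 was left out. Over the whole array the slide block called 687 probes and 75th percentile scaling 2000, against 2300 in the fit used for the calls. The fits without those replicates called 656 to 1445.

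Of 17 translation factors with a probe 0 were called by limma, against 11.6% of all probes, and 0 by the methods' t-test. At an unadjusted p under 0.05 by limma there were 4, against 29.3% of all probes. Their differences ranged from -0.54 (OXA1L, which inserts new chains into the inner membrane) to 0.54 (GFM2, which acts in ribosome recycling). Of 19 genes of mitochondrial aminoacyl-tRNA synthesis that were tested, 1 was called (5.26%, against 11.6% of all probes): HARS2, the histidyl-tRNA synthetase. It averaged 10.93 ± 0.06 (SD, n = 3) in NCE and read 11.49, 11.80 and 11.71 in CYGB+, a rise of 0.73 ± 0.15 (SE, limma's adjusted p 0.0247), with 0.62 within slide 2. No gene of that list was called with the slide as a block, nor without any 1 NCE replicate or CYGB+ replicate 2 or 3. Over the whole array the slide block called 687 probes and the fits without those replicates 656 to 1580, against 2300.

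The proteins of the cytosolic ribosome, which translates nuclear messages, were set beside those of the mitoribosome. Of 86 tested, 2 were called (2.33%, against 11.6% of all probes), RPS23 at 0.78 ± 0.20 and RPL26L1 at 0.71 ± 0.15 (SE, limma's adjusted p 0.0443 and 0.0273). With the slide as a block or without any 1 NCE replicate 0 were called. Those fits called 687 probes and 656 to 1102 probes over the whole array, against 2300. The median of the 86 was 0.08, with 66.3% above 0, close to the 67.1% of the mitoribosomal genes. Here too the slide moved with the result, and its part was not tested. In the NCE replicate on both slides the cytosolic set was higher on slide 2 by a median of 0.34, and within slide 2 its median difference was -0.07. Both values rest on the same single NCE array of slide 2. No test of a difference between the sets was made.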

How the data were processed

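RNA of 3 biological replicates of NCE and of CYGB+ was read on 15 Agilent SurePrint G3 2-colour arrays. The authors extracted the scans with Feature Extraction 10.7.3.1 and deposited, per array, the green processed signal, an intensity that is background-subtracted and dye-normalized, without normalisation between arrays. The deposited series table holds natural log values on 15040 probes (15031 matched), which followed the background-subtracted green signal (median slope 0.693 per log2 unit, median r 0.997 over pairs of arrays). They are centred per probe on a reference that is unknown, with column medians of -0.161 to 0.182, and were used as an alternative. Their direction followed the scanner values.

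Green processed signals of non-control spots were quantile normalised as log2 (limma 3.58.1, R 4.3.3), outlier-flagged spots were left out, spots of a probe and then arrays of a replicate were averaged, and probes well above background on every array of at least 1 group were kept (19791 of 42405). Samples were grouped by their labels. CYGB+ was compared with NCE by lmFit and eBayes with Benjamini-Hochberg adjustment at 0.05. The same functions were also run on simulated probes with known changes, with means and spreads taken from these arrays. Probes were named by matching unversioned RefSeq accessions to the GRCh38.p14 gene table (25422 of 27310 matched), since the scanner files carry no gene names. The probe with the highest mean represented a gene.

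The fit used for the calls did not pair samples. Replicate numbers were taken as pairing them only in the alternative with the replicate block. Its ground was that deviations from the group means of same-numbered replicates correlated at 0.239, 0.261 and 0.328 over the probes tested, all over 0.1. The labels state no shared day or batch, and the highest correlation with another number was 0.198, 0.270 and 0.159, which for replicate 2 exceeded that with its own number. The pairing is thus a hint from the data. Alternatives were 75th percentile scaling, normexp with offset 50 on the green median spot and background signals (no mean signal was used here), no filter or a filter on all arrays, the series table, the methods' t-test, an intensity trend, every array with the replicate as a random block, the slide as a block, the replicate block, each replicate left out and the mean over a gene's probes. Signal before dye normalization, and leaving out the array with a median correlation under 0.95, were chosen after seeing the data. Named genes were the called members, members whose probes differed by over 0.5 log2 or in a call, MRPL52, MRPS30, MRPS18A, members without a kept probe, and the called genes of each companion list. MRPL41, MRPL57, MRPS28, MRPL17 and MRPL23 and the values of uncalled genes were chosen after their values were seen. Members and lists were chosen with earlier results of these data known. The number of arrays limits the precision. Figures were drawn with matplotlib.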

Additional observations from a re-analysis of the deposited data

Results flagged for a closer look

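The red channel of these arrays entered no comparison, because the labels describe only the green one. It held signal: 88 of the 91 member probes were well above background in red on all 15 arrays. What RNA it came from is not labelled, so its values are given per array among the other observations and no test was made.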

How the results depend on the processing

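MRPL52 and MRPL39 kept their direction and their call in all 19 alternative fits, and MRPL33 kept its direction in all and its call in 15. The log2 differences of MRPL39 were -1.18 to -0.88. Those of the brighter MRPL52 probe were -2.52 to -1.96, and the mean over both MRPL52 probes gave -1.21. Over the whole array, higher calls numbered 1251 and lower calls 1049, and moved to 661 and 576 without the filter, 764 and 680 with the series table, 449 and 345 by the methods' t-test, 2177 and 1906 without the array that stood apart, 2476 and 2253 with every array and a random block, and 274 and 413 with the slide as a block. The replicate block gave 1667 lower calls. Leaving out a replicate gave 369 to 1118 and 287 to 979, with the fewest without NCE replicate 2 and the most without CYGB+ replicate 1.

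Members called higher (1) became 2 with normexp, the filter on all arrays, the t-test, the trend or the mean over probes, 3 with the replicate block, 5 without the array that stood apart, 6 with the random block, 0 with the slide block and 0 to 2 without a replicate. Members called lower (2) became 3 with the trend and with the replicate block, 4 without that array and with the random block, and stayed at 2 without any replicate. The count over the whole array, 2300 probes, moved too. It was 2374 with normexp, 1973 with the filter on all arrays, 794 by the t-test and 2429 with the trend. The replicate block gave 3478, the random block 4729 and the slide block 687. Without that array 4083 were called, and without a replicate 656 to 2097. Large subunit medians (0.12) became 0.23 with 75th percentile scaling, 0.17 without that array and 0.065 with the slide block (0.078 to 0.18 without a replicate). Small subunit medians (0.10) became 0.22, 0.21 with the series table, 0.13 before dye normalization, -0.0075 with the slide block and 0.0053 within slide 2 (0.067 to 0.12 without a replicate).

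The whole-array counts above stand beside those of the companion lists, with 2000 for 75th percentile scaling and 2268 before dye normalization. Calls among assembly factors (3) became 0 with 75th percentile scaling, no filter, the series table or the slide block, 1 with normexp, before dye normalization or by the t-test, 5 without that array, and 0 to 3 without a replicate. Translation factors (0) had 1 with normexp, 2 without that array or with the random block, and 0 to 1 without a replicate. Aminoacyl-tRNA synthesis genes (1) had 2 with normexp or the t-test, 3 without that array, 5 with the random block, 0 with the slide block and 0 to 2 without a replicate. Cytosolic ribosomal proteins (2) had 1 without the filter or by the t-test, 4 with the replicate block, 5 without that array, 6 with the random block, 0 with the slide block and 0 to 2 without a replicate. Genes whose probes differed by over 0.5 log2 (1) numbered 1 to 2 without a replicate. The cytoglobin probe turned to 0.091 with 75th percentile scaling and 0.047 with the series table (-0.28 to 0.26 without a replicate), and the dimmer MRPL52 probe to 0.014 with the slide block. The cause was not tested. With 3 replicates a group and 1 clone, the median SE of a member's difference was 0.159, and group and slide overlapped in all but 1 array.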

Other observations

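Red-channel signals, whose RNA the labels do not describe, were read for the genes that passed the test (log2 of the red processed signal, quantile normalised over the 15 arrays). For the brighter MRPL52 probe they fell into separate ranges. On the first-repeat arrays of NCE replicates 1, 2 and 3, all on slide 1, red read 10.86, 10.96 and 11.19. On the other 5 arrays of slide 1 it read 12.65 (replicate 1), 12.77 and 12.19 (replicate 2) and 11.95 and 12.31 (replicate 3). On slide 2 it read 12.59 on the NCE array and 9.69, 10.73, 10.74, 10.46, 10.78 and 10.24 on the CYGB+ arrays.

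MRPL39 split the same arrays in red, at 11.34, 11.23 and 11.13 on the first-repeat NCE arrays against 11.91 to 12.36 on the other NCE arrays of slide 1, 11.94 on the NCE array of slide 2 and 10.85 to 11.34 on the CYGB+ arrays. MRPL33 read 13.12, 13.19 and 13.06 on the first-repeat NCE arrays, against 12.29 to 12.83 on the other NCE arrays of slide 1, 12.87 on the NCE array of slide 2 and 13.14 to 13.92 on the CYGB+ arrays. In green the 3 first-repeat NCE arrays read 12.75 to 12.95 for the brighter MRPL52 probe, against 12.08 to 13.33 on the other NCE arrays, and 12.03 to 12.10 for MRPL39, against 12.08 to 12.29. The dimmer MRPL52 probe showed no such split in red, with 9.45, 9.85 and 9.58 on the first-repeat NCE arrays and 9.18 to 9.74 on the others of slide 1. The red values were not assigned to a group.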
